A study of Mus musculus with 12 samples.

Results

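The nuclear-encoded subunits of oxidative phosphorylation were followed in the tumors as 1 group of genes, taken by name. Members were the genes whose name begins with Ndufa, Ndufb, Ndufc, Ndufs, Ndufv, Uqcr, Atp5 or Cox4 to Cox8, together with Sdha, Sdhb, Sdhc, Sdhd and Cyc1. Of 102 names that matched, 8 Ndufaf assembly factor genes and 8 names ending in ps were left out, which left 86 members among the 54232 genes of the table. They fell into 36 genes of complex I, 4 of complex II, 9 of complex III, 20 of complex IV and 17 of complex V. The rule used names only, though earlier results of these data were known when it was set. The name Atp5o stood for 2 overlapping gene identifiers on the same strand, whose counts are therefore uncertain. The same holds for members that overlap another gene, such as Ndufs3 (Kbtbd4), Atp5d (Cbarp) and Atp5c1 (Gm23608), since the strand setting of the counting is not known.

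The 12 samples were whole tumors from SVR xenografts. SVR is a single mouse line, made from pancreatic islet endothelium by SV40 large T antigen and an activated H-ras gene. The labels give its strain as C57BL/6, and the hosts were athymic nude mice of 8 to 12 weeks, which lack T cells. After 3 to 7 days of growth the mice received daily gavage of vehicle (control), of trametinib, a MEK inhibitor, at 1 mg/kg, of cediranib, a VEGF receptor inhibitor, at 3 mg/kg, or of both drugs at these doses (combination), with 3 tumors in each group. The study describes an experiment with a common end date and another in which treatment went on until a tumor ulcerated or passed a size limit. The labels do not say which of them gave these tumors, nor how many days each was treated. Tumor cells, vessels, stroma and skin are all of mouse origin and cannot be separated in these counts.

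Oxidative phosphorylation passes electrons from NADH (complex I) and succinate (complex II) through complex III to oxygen at complex IV. The protons pumped on the way drive ATP synthesis at complex V. Most subunits are encoded in the nucleus, a small set in mitochondrial DNA, and the nuclear genes are served by shared activators such as NRF1, GABP, YY1 and the estrogen-related receptors, with coactivators of the PGC-1 family. Endothelial cells are known for a high use of glycolysis, and complex IV is known for subunits with alternative forms in muscle, lung or testis.

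The libraries held 9478865 to 11666094 counts, and the members took 0.331% to 0.460% of them. Levels are given as CPM, counts scaled to a common library size after normalization, and differences as log2 fold changes with the standard error (SE) of edgeR's quasi-likelihood fit. A gene passed the test at a false discovery rate (FDR) of 0.05 over the 12897 genes tested. The study's own threshold adds an absolute log2 fold change of 1.5. The labels number the replicates, and the column headings give most of them another tumor number. Neither says what the numbers stand for, so p-values measure the spread between these tumors. Several tissue marker lists varied between tumors. The summed level of 22 skeletal muscle genes was 21344 CPM in control 2 and 32311 CPM in trametinib 2, against 36.7 to 2501 CPM in the other tumors. The summed level of 22 epidermis genes was 3147 to 4685 CPM in the combination group, 28.1 to 662 CPM in control, 37.5 to 50.6 CPM in trametinib and 52.2 to 2979 CPM in cediranib. For 13 endothelium genes the sums were 81.9 to 146 CPM in combination, 257 to 514 CPM in control, 115 to 176 CPM in trametinib and 160 to 401 CPM in cediranib, and none of these genes was at 0 in all tumors.

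Because these genes are thought to share activators, their promoters were searched for short motifs on both strands. RefSeq windows of 300 bases (GRCm38.p6, 250 before and 50 after the most 5′ start) were found for 69 of the 86 members and for 27025 genes in all. The NRF1 core GCGCANGCG occurred in 27.5% of member windows and 6.49% of all windows. The ETS core CCGGAAG, which GABP binds, occurred in 21.7% and 9.14%, the YY1 core AAGATGG in 14.5% and 6.46%, the ERR element AAGGTCA in 11.6% and 4.65%, and the HIF core ACGTG in 26.1% and 19.6%. At least 1 of the first 4 motifs named stood in 38 member windows (55.1%) against 23.7% of all windows. By complex, NRF1 cores were found in 8 of 32 windows of complex I, 2 of 3 of complex II, 2 of 5 of complex III, 1 of 14 of complex IV and 6 of 15 of complex V. That single complex IV window belonged to Cox6a1. The bases before the start are printed for the 3 members with the smallest p after combined treatment, all filed under complex IV, and for Atp5l, a membrane subunit of complex V whose window holds 3 of the activator motifs. Capitals mark motif matches, and HIF cores can overlap, since ACGTG and its reverse share 4 bases within CACGTG.
Cox7b: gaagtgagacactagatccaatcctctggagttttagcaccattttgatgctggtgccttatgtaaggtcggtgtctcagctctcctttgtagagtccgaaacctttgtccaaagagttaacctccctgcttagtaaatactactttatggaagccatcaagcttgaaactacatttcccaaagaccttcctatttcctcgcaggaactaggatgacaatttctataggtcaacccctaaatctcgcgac
Cox7a2l: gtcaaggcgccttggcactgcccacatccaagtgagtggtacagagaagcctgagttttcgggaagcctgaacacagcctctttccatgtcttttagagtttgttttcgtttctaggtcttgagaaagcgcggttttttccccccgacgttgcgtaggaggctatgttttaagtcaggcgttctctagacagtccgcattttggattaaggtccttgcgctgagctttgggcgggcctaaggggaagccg
Cox5a: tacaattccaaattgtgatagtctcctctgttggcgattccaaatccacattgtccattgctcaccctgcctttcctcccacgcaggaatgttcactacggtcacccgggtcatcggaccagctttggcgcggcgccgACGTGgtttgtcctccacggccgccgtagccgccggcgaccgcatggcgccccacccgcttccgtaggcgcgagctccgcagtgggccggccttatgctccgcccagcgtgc
Atp5l: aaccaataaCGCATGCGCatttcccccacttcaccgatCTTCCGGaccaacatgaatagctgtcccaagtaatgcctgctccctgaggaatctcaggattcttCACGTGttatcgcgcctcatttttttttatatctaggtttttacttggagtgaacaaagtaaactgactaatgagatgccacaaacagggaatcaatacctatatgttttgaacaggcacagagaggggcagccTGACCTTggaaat
These stretches lie at chrX:106015450-106015699 on the plus strand, chr17:83514334-83514583 on the minus strand, chr9:57520982-57521231 on the plus strand and chr9:44920743-44920992 on the minus strand. Cox7b and Cox7a2l held 0 matches in the whole window. Cox5a held 1 HIF core. Atp5l held 1 NRF1 core, 1 ERR element, 2 overlapping HIF cores and 2 ETS cores, of which 1 lies after the start and is not printed. A match is a run of letters and does not show that the factor binds there.

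The level of the members ranged widely within each complex in control tumors. Probe capture was used here, and the probes of this kit are designed on human exons, so a level also depends on how well a mouse transcript is captured. Atp5b, the catalytic beta subunit of the F1 head of complex V, took 39.8% of all member counts. Its level was 1411, 1717 and 1950 CPM in the control tumors. The plot of captured levels shows the members that were too low to test in complexes I, III, IV and V.

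**Figure D1:**
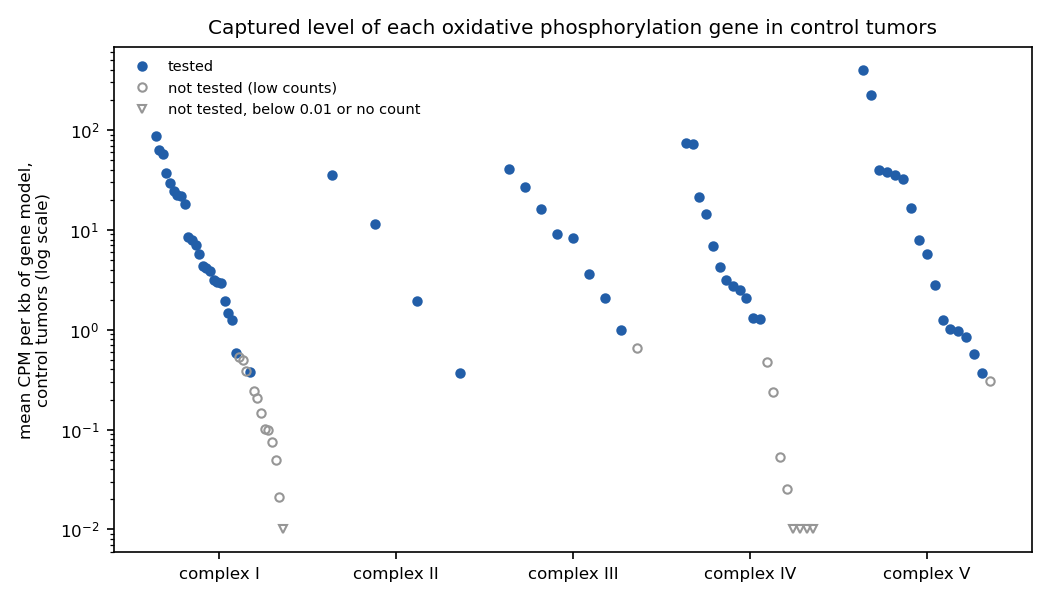
Mean CPM per kb of gene model in the 3 control tumors for each of the 86 members (points, log scale), ranked within complexes I to V; filled points passed the filter on low counts and open points did not. Atp5b leads at 399.5 CPM per kb, while 22 members of complexes I, III, IV and V fall below the filter.

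Per kb of gene model, the highest control levels were 35.5 CPM for Sdha in complex II, 41.0 for Uqcrb in complex III, 74.4 for Cox5a in complex IV and 399.5 for Atp5b in complex V. Core subunits, which carry the cofactors and substrate sites, differed widely in level. In complex I, Ndufv1, the NADH-binding subunit, stood at 63.0 CPM per kb, Ndufs3 at 37.0, Ndufv2 at 29.5 and Ndufs1 at 22.6, while Ndufs8 stood at 5.72 and Ndufs7 at 2.99. In succinate dehydrogenase, the flavoprotein Sdha and the iron-sulfur subunit Sdhb (11.3 CPM per kb) were above the membrane anchors Sdhd (1.96) and Sdhc (0.373). In complex III, the Rieske protein Uqcrfs1 stood at 16.1 CPM per kb, cytochrome c1 (Cyc1) at 9.10 and the core proteins Uqcrc2 and Uqcrc1 at 8.25 and 3.59. In complex IV, Cox4i1 was at 14.6 and Cox5b at 6.92, and in complex V the alpha subunit Atp5a1 was at 39.5 and the gamma subunit Atp5c1 at 16.6.

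After filtering, 64 members were tested and 22 were not: 12 of complex I, 1 of complex III, 8 of complex IV and 1 of complex V. In complex I these were Ndufa1, Ndufa2, Ndufa5, Ndufa11, Ndufb2, Ndufb3, Ndufb4, Ndufb5, Ndufc1, Ndufc2, Ndufs5 and Ndufs6. The others were Uqcr10, Cox4i2, Cox6a2, Cox6b2, Cox7a1, Cox7a2, Cox7b2, Cox8b, Cox8c and Atp5j2. Together the 22 took 0.112% of member counts, and none had more than 13 counts in a library. The median gene model was 824 bases long for the untested members, 1816 for the tested ones and 4176 over all genes tested. Across the 86 members, control CPM and length had a Spearman rho of 0.48, and CPM per kb and length 0.26, as a description of 1 set of libraries. Of the tested members, 2 passed the filter through 1 group only.

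Most of the alternative forms of complex IV subunits were at or near 0. Cox6a2, Cox7b2 and Cox8c had 0 counts in all 12 libraries, which allows up to 0.251 to 0.349 CPM in a library (3 counts, counting error only). Cox8b and Cox6b2 had 2 counts in all, Cox7a1 had 3 and the oxygen-responsive Cox4i2 had 18. Cox6a2, Cox7a1 and Cox8b are the heart and skeletal muscle forms, and they stayed at 0 in control 2 and trametinib 2, the tumors with by far the highest sums of muscle genes. The widely expressed partners were counted at low levels as well, with 285 counts in all for Cox6a1, 168 for Cox6b1, 135 for Cox8a and 41 for Cox7a2. Ndufa4, a subunit of complex IV despite its name, had 451 counts and its alternative form Ndufa4l2 had 1051.

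Combined treatment was first compared with control. Of 64 members 50 had a log2 fold change below 0 (78.1%, against 49.9% of all genes tested), with a median of -0.24 (0.0015 over all genes). The test passed 1 member, Cox7b, with 9.98% of all genes past it, and 0 members also met the fold threshold, which 3.61% of all genes met. There were 0 members without control 2, control 3 or combination 1 and 3 without control 1, and without combination 3 the 1 member was Ndufa4l2 and not Cox7b. At an unadjusted p under 0.05 there were 14 members, 12 of them lower (27.2% of all genes in either direction). The groups did not overlap for 15 members, 14 of them lower, against 31.3% of all genes. These shares of the members are below those of all genes, and the members' common feature was a small difference of like sign. The median was -0.13 without combination replicate 3, -0.32 without combination replicate 1 and -0.01 with the epidermis score as a covariate, and on library totals alone it was -0.11 while the median of all genes moved to 0.13.

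**Figure D2:**
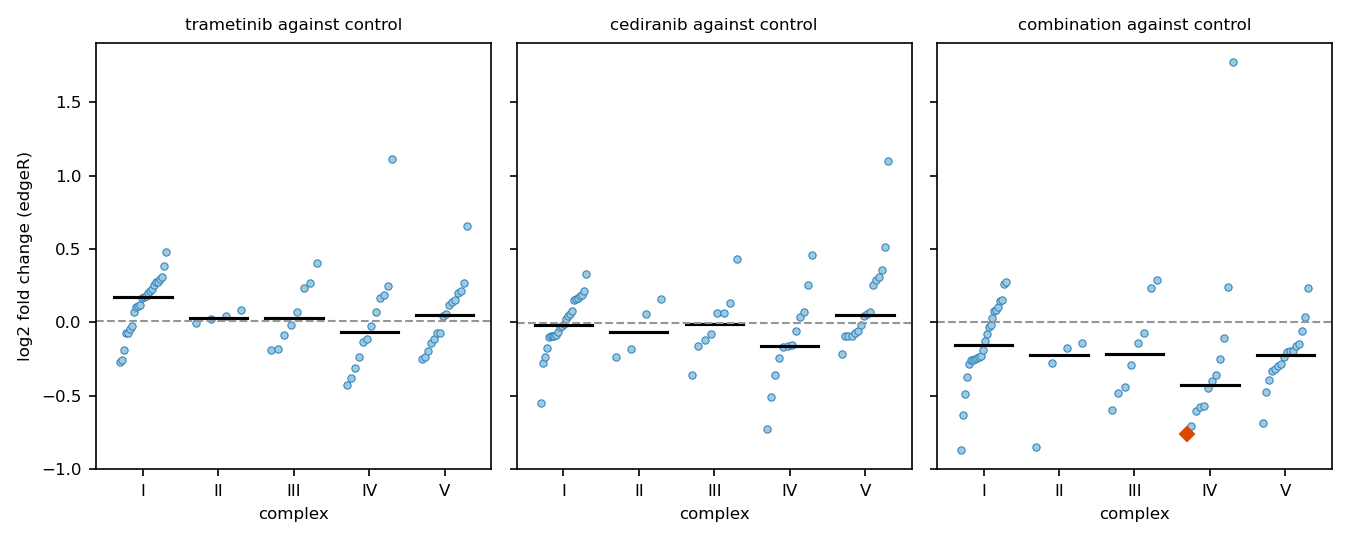
Log2 fold change of each tested member (points, ranked within complexes I to V) for 3 comparisons with control; black bars are medians of a complex, the dashed line is the median of all genes tested, and the orange diamond is the member past an FDR of 0.05. Complex medians lie at -0.16 to -0.43 for the combination, with Ndufa4l2 the point at 1.77.

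By complex, the median log2 fold change for combination against control was -0.43 in complex IV (10 of 12 below 0), -0.23 in complex II (4 of 4), -0.22 in complex III (6 of 8), -0.22 in complex V (14 of 16) and -0.16 in complex I (16 of 24). The mean log2 CPM of the 64 members was 3.48, 3.69 and 3.81 in the control tumors, 3.67, 3.74 and 3.79 after trametinib, 3.69, 3.71 and 3.602 after cediranib, and 3.64, 3.54 and 3.204 after the combination. The third combination tumor was the lowest of all 12, and the other 2 combination tumors lay within the range of the control tumors. In complex IV the third combination tumor was at 2.26 and the other 2 at 2.94 and 2.98, against 2.74 to 3.21 in control. In complex V the means were 3.94 to 4.14 in control, 4.14 to 4.23 after cediranib, and 3.98, 3.81 and 3.67 after the combination. The members' share of all counts, which is taken on library totals without normalization, was 0.412% ± 0.037 in control and 0.400% ± 0.061 in combination (SD, n = 3).

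**Figure D3:**
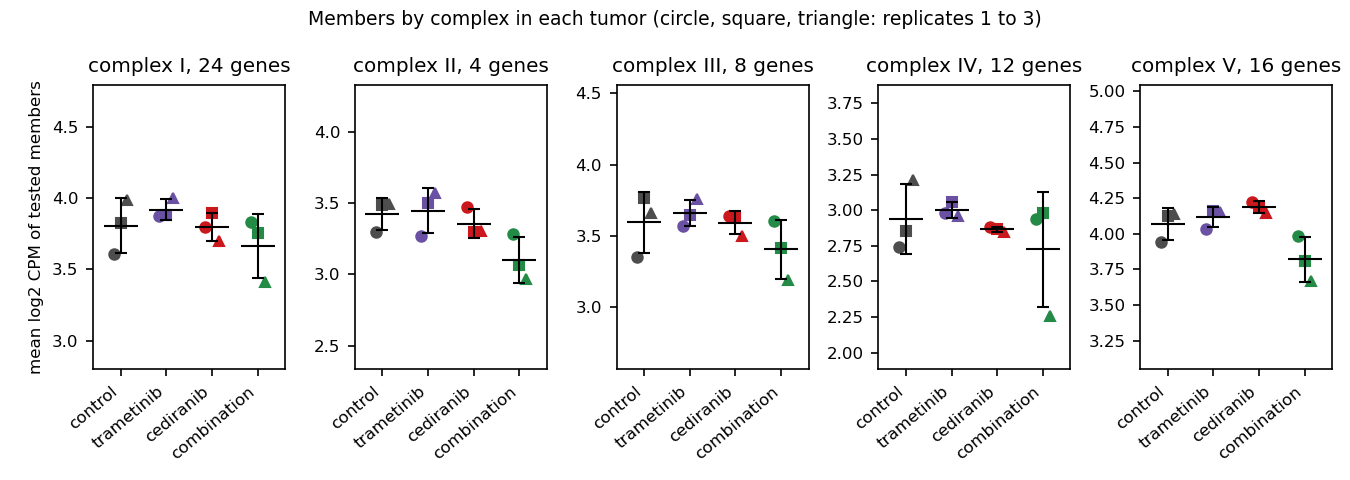
Mean log2 CPM of the tested members of each complex in each tumor (points, shapes by replicate; bar and whiskers, mean ± SD of 3 tumors) for control, trametinib, cediranib and combination. Combination replicate 3 is the lowest point in all 5 panels.

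Cox7b, a small structural subunit of complex IV at chrX:106015700-106022450, was the member that fell after combined treatment. Its level was 21.1, 26.8 and 29.1 CPM in the control tumors and 13.5, 19.2 and 12.5 CPM in the combination tumors. It was 19.2, 27.1 and 29.3 CPM after trametinib and 20.5, 23.6 and 20.7 CPM after cediranib. All 3 combination tumors were below every tumor of the other groups, the closest being 19.2 CPM in trametinib 1. The log2 fold change against control was -0.77 (SE 0.21, FDR 0.0398 by edgeR), against trametinib -0.74 (FDR 0.0984) and against cediranib -0.52 (FDR 0.160). The call was lost without control 2, control 3, combination 1 or combination 3 in turn (log2 fold changes of -0.74 to -0.65, FDR 0.107 to 0.138). It was also lost with the epidermis score in the model (log2 fold change -0.46, FDR 0.630).

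Other members were lower after combined treatment by a like amount but did not pass. Cox7a2l, which helps to join complexes III and IV into supercomplexes, was at 95.1, 75.8 and 76.2 CPM in control and 60.8, 54.7 and 50.03 CPM in combination (log2 fold change -0.58, SE 0.18, FDR 0.0588). The groups did not overlap. Cox5a, a subunit on the matrix side of complex IV, was at 117, 164 and 188 CPM in control and 125, 90.8 and 99.5 CPM in combination (-0.57, SE 0.18, FDR 0.0645). It overlaps Gm26631 on the other strand, so its count is uncertain, and the first control tumor lay below the first combination tumor. Uqcrb, which contributes to the ubiquinone site of complex III, was at 29.8, 39.3 and 38.6 CPM in control and 25.2, 28.1 and 17.7 CPM in combination (-0.60, SE 0.20, FDR 0.0771), and it overlaps Gm10767 on the other strand. Cox5b, the zinc-binding subunit, had a log2 fold change of -0.71 (SE 0.25, FDR 0.0980). With the epidermis score as a covariate the log2 fold changes of Uqcrb, Cox5a and Cox5b were -0.16, -0.28 and -0.44. That of Cox7a2l stayed between -0.65 and -0.46 in all alternatives. By DESeq2, Cox7b, Cox7a2l, Cox5a and Uqcrb were all lower at an FDR of 0.05, and Ndufv1 and Ndufa4l2 were higher, so 6 members passed there.

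**Figure D4:**
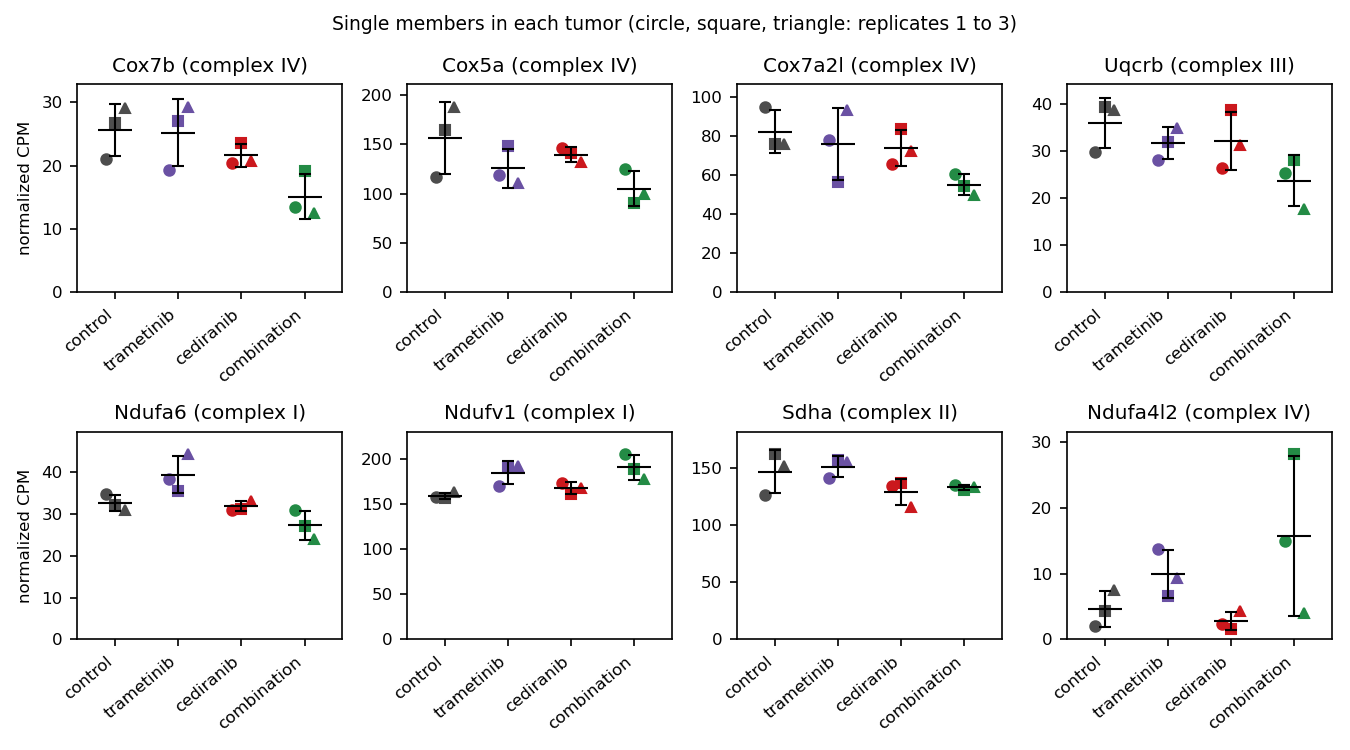
Normalized CPM of 8 members in each of the 12 tumors (points, shapes by replicate; bar and whiskers, mean ± SD, n = 3), with each axis starting at 0. Cox7b and Cox7a2l lie below all control tumors in the combination group, Ndufv1 lies above them, and Ndufa4l2 spreads from 3.99 to 28.2 CPM within the combination group.

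Ndufv1 was at 157, 157 and 163 CPM in control and 205, 188 and 177 CPM in combination, with no overlap (log2 fold change 0.26, SE 0.10, FDR 0.111). Its position was opposite to most of complex I, as was that of Ndufs3, another core subunit, with a level of 72.3 to 88.8 CPM in control and 77.9, 100.5 and 90.5 CPM in combination. Sdha, by contrast, was nearly level across the combination tumors, at 135, 131 and 133 CPM against 126, 162 and 152 CPM in control. In complex V, the c-ring gene Atp5g1 was at 133, 151 and 197 CPM in control and 170, 204 and 117 CPM in combination, and Atp5b was at 1795, 1499 and 1113 CPM in combination. For both, the third combination tumor was the lowest of the group.

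Ndufa4l2 differed from the rest of complex IV. It is known as a gene that hypoxia-inducible factor raises and whose product can take the place of Ndufa4, and it lies at chr10:127514967-127517053. Its level was 2.04, 4.36 and 7.48 CPM in control, 13.8, 6.63 and 9.38 CPM after trametinib, 2.40, 1.61 and 4.31 CPM after cediranib, and 15.05, 28.2 and 3.99 CPM after the combination. The trametinib tumors were all above the cediranib tumors, while the third combination tumor lay among the cediranib ones. Against cediranib the combination was higher by 2.50 on the log2 scale (SE 0.66, FDR 0.0408 by edgeR), the only member past the test there (7.68% of all genes) and past the fold threshold as well (2.45% of all genes). Leaving out any cediranib tumor, combination 1 or combination 2 ended the call (FDR 0.0579 to 0.147), and it stayed without combination 3 (FDR 0.0158). Against control the differences were 1.77 (FDR 0.0963) for the combination and 1.11 (FDR 0.353) for trametinib, and for trametinib against cediranib it was 1.84 (FDR 0.104). Leaving out 1 tumor gave 1.04 to 2.30, 0.74 to 1.64 and 1.53 to 2.31 for these differences in turn.

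In the same tumors Ndufa4 itself was at 1.87, 4.05 and 5.46 CPM in control and 3.53, 3.63 and 1.39 CPM in combination. Of 18 tested genes of a glycolysis and hypoxia list, 0 passed for combination against control or combination against cediranib, with list medians of -0.04 and -0.02. Ndufa4l2 is also known from pericytes. The summed level of 8 mural cell genes, a list chosen after values had been seen, was 46.2 to 100.4 CPM in control, 67.2 to 91.0 CPM in trametinib, 39.2 to 73.6 CPM in cediranib, and 91.2, 54.2 and 172 CPM in the combination tumors. Of its 6 tested genes 4 were lower and 1 higher for combination against control, and within the combination group the sum was highest in the tumor with the least Ndufa4l2. Unlike the sum, the mean log2 level of these 6 genes was lower in each combination tumor (1.46 to 1.88) than in any other tumor. It was 2.15 to 3.39 in control, 2.25 to 3.08 in trametinib and 1.93 to 3.07 in cediranib. The part of either gene set in the level of Ndufa4l2 was not tested.

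Combination against trametinib gave a like picture, with 52 of 64 members below 0 (51.2% of all genes) and a median of -0.25. By edgeR 0 members passed (0.969% of all genes did), 0 by the likelihood ratio test and 2 by DESeq2, and 10 had an unadjusted p under 0.05, all lower (17.9% of all genes). The groups did not overlap for 15 members, all lower in the combination, against 24.2% of all genes. Ndufa6, an accessory subunit of complex I, had the smallest p. It was at 38.5, 35.5 and 44.4 CPM after trametinib and 30.9, 27.1 and 24.0 CPM after the combination, with control at 34.7, 32.1 and 30.9 CPM (log2 fold change -0.53, SE 0.13, FDR 0.0766). The trametinib tumors were the highest of the 3 groups, and control 3 and combination 1 stood level. Atp5c1, the gamma subunit that turns inside the F1 head, was at 31.0, 32.1 and 46.1 CPM after trametinib and 24.2, 27.0 and 26.8 CPM after the combination (-0.49, SE 0.16, FDR 0.1496). Without trametinib 3 its log2 fold change was -0.27. The median was -0.14 without combination replicate 3 and 0.0053 with the epidermis score as a covariate.

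Combination against cediranib had 53 of 64 members below 0 (49.6% of all genes), with a median of -0.20. At an unadjusted p under 0.05 there were 10 members, of which 9 were lower (23.1% of all genes). Atp5d, the delta subunit of the F1 head, came next after Ndufa4l2. It was at 2.40, 2.36 and 2.49 CPM after cediranib and 1.31, 1.27 and 0.928 CPM after the combination (log2 fold change -1.04, SE 0.30, FDR 0.0587). The 3 comparisons of the combination share its 3 tumors, so their values are not independent of one another. Without combination replicate 3 the median was -0.06.

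Neither drug alone moved a member past the test. For trametinib against control, 0 members passed by edgeR and 0 by DESeq2 (6.12% of all genes by edgeR), and 1 had an unadjusted p under 0.05 (20.7% of all genes). The median was 0.07, and its sign was not stable, at -0.05 without control 1 and 0.18 without control 3. The smallest p-values belonged to 3 subunits of complex I. These were Ndufv1 (log2 fold change 0.21, SE 0.10, FDR 0.240), Ndufa6 (0.28, SE 0.13, FDR 0.266) and Ndufb6 (0.48, SE 0.25, FDR 0.297), and in each of them all trametinib tumors were above all control tumors. For cediranib against control, 0 members passed by edgeR or DESeq2, as did 0% of all genes, and 2 had an unadjusted p under 0.05 (4.32% of all genes). The median was -0.02, again without a stable sign. It was -0.10 without control 1, 0.05 without control 3 and 0.06 with the epidermis score as a covariate. Ndufa3 (-0.55, SE 0.24), Uqcrc2 (-0.36, SE 0.16) and Atp5k (1.10, SE 0.56), all with an FDR of 0.999, had the smallest p. Atp5k, a small membrane subunit of complex V, had 100 counts in all libraries together.

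Between the single drugs, 0 members passed by edgeR and 1, Ndufa4l2, by DESeq2 (8.65% of all genes by edgeR), and 3 had an unadjusted p under 0.05, all higher after trametinib (24.7% of all genes). Beside Ndufa4l2 and Ndufa6 (log2 fold change 0.31, SE 0.13, FDR 0.170) this was Ndufs4, an accessory subunit of complex I, at 74.9, 83.0 and 90.3 CPM after trametinib and 48.4, 66.6 and 62.3 CPM after cediranib (0.49, SE 0.18, FDR 0.119). An interaction term asked whether cediranib acted differently with and without trametinib. No member passed it by edgeR or DESeq2, nor did any gene (0%), and 4 members had an unadjusted p under 0.05, all below 0 (7.05% of all genes). The smallest p-values belonged to Ndufa6 (-0.50, SE 0.19, FDR 0.682), Ndufb11 (-0.65, SE 0.28, FDR 0.695) and Atp5c1 (-0.53, SE 0.23, FDR 0.695). Without trametinib 3 the interaction of Atp5c1 was -0.30. Of 64 members 56 had an interaction below 0 (87.5%, against 50.3% of all genes), with a median of -0.25. Without combination replicate 3 there were 43 with a median of -0.08, and with the epidermis score as a covariate the median was -0.05.

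**Figure D5:**
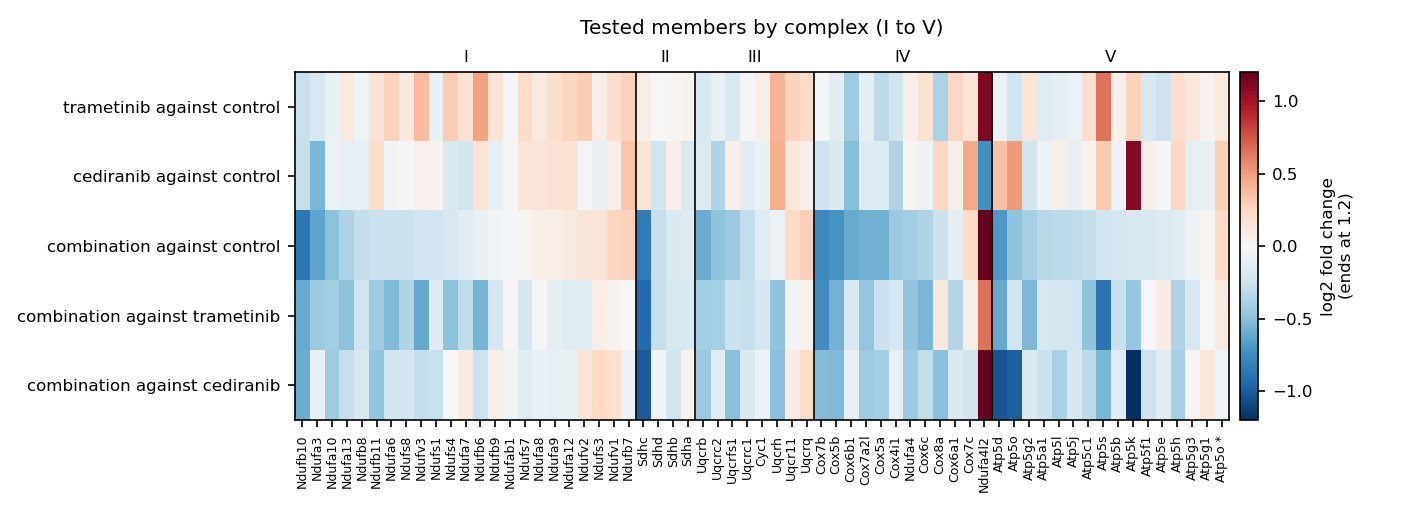
Log2 fold change (color, blue lower and red higher in the group named first; scale ends at 1.2) of tested members (columns, with 1 left out, grouped by complex and ordered by combination against control) in 5 comparisons (rows). The 3 rows with the combination are mostly blue while those for single drugs are mixed, and Ndufa4l2 and Atp5k lie beyond the ends of the scale; the asterisk marks the second gene identifier named Atp5o.

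The combination tumors also differed from control in the genes of other tissues, in a comparison where 9.98% of all genes passed. Of 18 tested epidermis genes 7 were higher for combination against control, Ppl, Sfn and Lor among them, and the mean log2 level of the list was 4.56 to 5.00 in combination, -0.44 to 2.74 in control, -1.28 to -0.90 in trametinib and -0.33 to 4.20 in cediranib. Of 11 tested endothelium genes 6 were lower, among them Pecam1, Tie1 and Cdh5, and of 11 macrophage genes 4 and of 5 erythroid genes 4 were lower. Erythroid sums were 15.1 to 16.3 CPM in combination and 74.0 to 1798 CPM in control. Fibroblast and adipocyte lists had 0 genes past the test in this comparison. With the epidermis score in the model the medians of the members against control and trametinib lay near 0, as given above. That score was 4.20 and 4.18 in cediranib 1 and 3, with member means of 3.69 and 3.602. In cediranib 2 the score was -0.33 and the member mean 3.71. The score was higher in every combination tumor than in any tumor of the other groups. What belongs to the drugs and what to the skin therefore cannot be told apart. In whole tumors, fewer cells of a type and less RNA per cell cannot be told apart either.

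The genes around the respiratory chain were described from lists. The 13 subunits encoded in mitochondrial DNA were nearly uncaptured, with a summed level of 27.7 to 50.98 CPM, and 7 were tested. All 7 were below 0 for the combination against control, against trametinib and against cediranib, and 3 were lower against cediranib (7.68% of all genes passed there). These were mt-Nd1 (log2 fold change -1.198, SE 0.31, FDR 0.0371), mt-Nd6 (-0.995, SE 0.26, FDR 0.0395) and mt-Cytb (-0.95, SE 0.26, FDR 0.0484), with lost calls in 10, 10 and 13 of 15 alternatives. Leaving out any of the 6 tumors ended the calls of mt-Nd6 (FDR 0.0615 to 0.121) and mt-Cytb (FDR 0.0595 to 0.152), and any but cediranib 2 that of mt-Nd1 (FDR 0.0809 to 0.121). mt-Cytb, the cytochrome b of complex III, was at 6.99, 8.23 and 5.65 CPM after cediranib and 3.33, 3.18 and 4.27 CPM after the combination. Of 48 assembly factor genes 30 were tested and 0 passed by edgeR in any of the 7 comparisons, with a median of -0.03 for combination against control. Of 18 tricarboxylic acid cycle genes, which feed electrons to the chain, Idh3b (-0.45, SE 0.11, FDR 0.0211) and Dlst (-0.35, SE 0.10, FDR 0.0498) were lower for combination against control. Idh3b lost the call without control 2, control 3, combination 2 or combination 3 (FDR 0.0687 to 0.0832), and Dlst without any of the 6 tumors (FDR 0.0535 to 0.167). Over all 15 alternatives Idh3b lost the call in 8 and Dlst in 14. In this comparison 9.98% of all genes passed.

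Among 14 tested regulators of mitochondrial biogenesis, 2 were lower for combination against control, where 9.98% of all genes passed. For trametinib against control 1 was lower, with 6.12% of all genes past the test. Pprc1, a growth-regulated coactivator of the PGC-1 family, was at 54.4, 57.2 and 52.4 CPM in control, 36.9, 38.8 and 29.5 CPM after trametinib, 51.9, 51.6 and 49.0 CPM after cediranib, and 35.0, 41.2 and 37.1 CPM after the combination. The tumors that received trametinib were all below those that did not. It fell by 0.64 on the log2 scale after trametinib (SE 0.13, FDR 0.0106) and by 0.53 after the combination (SE 0.12, FDR 0.0216), each against control, and the first of these calls held when any 1 tumor was left out (FDR 0.0173 to 0.0409). The second was lost without control 2, control 3, combination 1 or combination 3 (FDR 0.0521 to 0.0749). Gabpb1, the beta chain of GABP, whose ETS core was searched above, was at 52.7, 54.8 and 63.8 CPM in control and 33.6, 34.2 and 36.01 CPM after the combination. It fell by 0.72 (SE 0.14, FDR 0.0104) against control and by 0.63 (SE 0.14, FDR 0.0208) against cediranib, and with the epidermis score the FDRs were 0.388 and 0.0868. The call against cediranib was lost without any 1 of the tumors compared except cediranib 1 (FDR 0.0506 to 0.0753), and that against control held without any 1 tumor (FDR 0.0144 to 0.0448).

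Of 9 carrier and cytochrome c genes, Ckmt1, the mitochondrial creatine kinase, was at 12.8, 3.75 and 0.909 CPM in control, 0, 0.116 and 0 CPM after trametinib, 89.0, 6.24 and 56.9 CPM after cediranib and 115, 158 and 128 CPM after the combination. It was higher for combination against control (log2 fold change 4.50, SE 0.89, FDR 0.0105) and combination against trametinib (FDR 0.0196), and lower for trametinib against control (FDR 0.0407) and trametinib against cediranib (FDR 0.00238). The call for trametinib against control was lost without any tumor but control 3 (FDR 0.0656 to 0.137), and that for combination against trametinib without any trametinib tumor or combination 2 (FDR 0.0563 to 0.0707). With the epidermis score in the model the FDRs of the first 2 calls were 0.129 and 0.0793. The tumors high in Ckmt1 were those high in epidermis genes, with the 2 cediranib tumors at 89.0 and 56.9 CPM having epidermis sums of 2979 and 1871 CPM and the third 52.2 CPM. Of 18 glycolysis and hypoxia genes, Hk2, the hexokinase that commits glucose to glycolysis, was at 79.5, 47.1 and 83.5 CPM in control, 38.6, 40.4 and 27.0 CPM after trametinib, 77.3, 96.1 and 79.7 CPM after cediranib and 52.9, 56.3 and 44.3 CPM after the combination. It was lower after trametinib against control (-0.99, SE 0.22, FDR 0.0195) and against cediranib (-1.26, SE 0.22, FDR 0.00528). All trametinib tumors were below all control and cediranib tumors. The call against control was lost without control 1, control 3 or trametinib 3 (FDR 0.058 to 0.0814), and that against cediranib held without any 1 tumor (FDR 0.0131 to 0.0222).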

How the data were processed

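RNA of 12 tumors (3 per treatment) was sequenced after exome capture. The paper chose this method because RNA degradation was relatively high in the tumors, and it gives no integrity value for single tumors. The authors used bcl2fastq 1.8.4, aligned to GRCm38 with STAR 2.7.1a, summarized genes with featureCounts 1.6.0 and deposited raw counts without normalization. Their strand setting, annotation release and multi-mapping rule were not stated in the sources used here, and reads of overlapping genes may therefore be mixed. Each of the 12 columns was assigned to 1 sample by its label, and all differed from each other.

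Counts were filtered with filterByExpr (minimum count 10, minimum total 15), normalized by TMM (factors 0.908 to 1.10) and tested by quasi-likelihood in edgeR 4.0.16 (R 4.3.3), all 12 libraries in 1 fit, with 7 contrasts and Benjamini-Hochberg adjustment over 12897 genes. The method was tested on simulated data in which single genes changed independently, so that test does not cover shifts of like sign across a set of genes. SEs were obtained by dividing the size of each log2 fold change by the root of its F statistic. Log2 CPM used a prior count of 2, and CPM per kb used the gene model lengths of the deposited table. Libraries held 9478865 to 11666094 counts, and 3 counts, the limit a count of 0 allows, equal 0.251 to 0.349 CPM. DESeq2 1.42.0 was an alternative, as were other scalings, no filter, the likelihood ratio test, fits of the compared groups alone, a replicate block, 2 tissue scores as covariates and leaving out each tumor. Of 54232 identifiers 54165 were found in GENCODE M21, which gave gene types and overlaps. Promoter windows came from RefSeq (GRCm38.p6).

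Members and lists were chosen with earlier results of these data known, and the mural list after its values were seen. The members named by rule are core subunits, isoform pairs, and in each comparison up to 3 per complex past the test or the 3 with the smallest p. Cox7a2l, Cox5a, Uqcrb, Cox5b, Ndufs3, Sdha, Atp5g1 and Atp5d in the comparisons with the combination were chosen after their values were seen. Of the members, 1 is counted in the totals but not reported here by itself. From the other lists up to 3 genes past the test in a comparison are named, and cell type lists are given by counts and sums.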

Additional observations from a re-analysis of the deposited data

How the results depend on the processing

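Members past an FDR of 0.05 numbered 1 for combination against control. There were 5 with no filter on low counts, 4 by the likelihood ratio test, 6 by DESeq2, 0 with the muscle score and 0 with the epidermis score as covariate. The 1 member was Ndufv1 on library totals and Cox7a2l with the compared groups alone. For combination against trametinib (0 members) there was 1 with no filter and 2 by DESeq2. For combination against cediranib (1 member) there were 2 by the likelihood ratio test, 0 with the compared groups alone and 0 with the epidermis score. For trametinib against cediranib (0 members) there was 1 each with no filter, by the likelihood ratio test, by DESeq2 and with the compared groups alone, and for trametinib against control (0 members) 1 with no filter. The causes were not tested. Leaving out 1 tumor at a time gave 0 to 3 members for combination against control (0 without control 2, control 3 or combination 1, 3 without control 1) and 0 to 1 for combination against cediranib. With the epidermis score the median of the members moved to -0.012 for combination against control, 0.0053 for combination against trametinib and -0.049 for the interaction. Leaving out 1 tumor gave medians of -0.32 to -0.13, -0.35 to -0.14, -0.27 to -0.06 and -0.31 to -0.081 for combination against control, trametinib and cediranib and for the interaction, the values nearest 0 all without combination replicate 3.

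Tumors with the same replicate number in the labels did not deviate together (r of -0.22 to 0.36, over 0.1 in 3 of 18 pairs). The replicate numbers were therefore not taken as pairs. With the replicate block 0 members passed for combination against cediranib, and Cox7b passed for combination against control (FDR 0.0297). No value reversed its direction among the genes followed through the alternatives, which did not include Ndufs3, Sdha, Atp5g1 or Atp5d. Of the alternative values 670 kept their call or moved by less than the replicate spread, 110 fell short of the threshold, 24 newly passed it and 29 counts or medians moved further. Only genes past the test in the main fit could fall short, and the 670 include many that never passed. The 670 therefore do not measure how well the calls held. Members under the filter had at most 13 counts in a library and were not tested in the main fit, so little can be said of changes in them.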
